A study of Mus musculus with 6 samples.

Results

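The Polycomb genes described here are 10 genes that encode subunits of Polycomb repressive complex 1 (PRC1) and Polycomb repressive complex 2 (PRC2), 2 protein assemblies that keep genes silent through marks on histones. They were taken by name (*Ezh1*, *Ezh2*, *Eed*, *Suz12*, *Jarid2*, *Ring1*, *Rnf2*, *Bmi1*, *Cbx7* and *Cbx8*) from a deposited table of 12101 genes, and all 10 had a row in it. RNA had been sequenced from megakaryocyte–erythroid progenitors (MEPs), the bone marrow cells that give rise to red blood cells and to platelet-forming megakaryocytes. MEPs were sorted from adult *Nanog* transgenic mice of the CD-1 strain, which carry the transactivator *M2-rtTA* at *Rosa26* and a *Nanog* cDNA under a doxycycline-responsive promoter at *Col1a1*. There were 3 libraries from mice given doxycycline (dox) in the drinking water for 5 days and 3 from mice of the same genotype without dox. As the transactivator lies at a locus used in most tissues, *Nanog* was not induced in MEPs alone, and with no dox-treated libraries lacking the transgene analysed here, effects of dox and of *Nanog* cannot be told apart. How many animals stood behind each library is not given in the sources used here, so p-values measure only the spread between these libraries.

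PRC2 places methyl groups on lysine 27 of histone H3 through either of the alternative enzymes EZH1 and EZH2, which work only together with EED and SUZ12. JARID2 joins PRC2 and helps to bring it to its sites. PRC1 holds the ubiquitin ligases RING1 and RNF2 (also called RING1B), which modify histone H2A, paired with a PCGF protein such as BMI1, and its CBX subunits, CBX7 and CBX8 among them, bind the mark that PRC2 leaves. In blood formation EZH2 is the form associated with dividing cells and EZH1 with quiet or more mature ones, BMI1 is needed for self-renewal of stem cells, and the *Hox* genes are classical targets of both complexes.

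Transgene expression was read first as a check of the groups. *Nanog* had 17062, 19609 and 15959 reads with dox (replicates 1, 2 and 3) and 9, 13 and 1 reads without. Library depth over the listed genes ran from 11264803 to 16153600 reads. Levels are given as CPM, reads scaled to the normalized library size, and 3 reads, the limit that a count of 0 allows, came to 0.193 to 0.273 CPM, which covers counting error only. Dox-treated replicate 3 stood apart from the other dox-treated libraries. On the first principal component it lay at -14.8, replicates 1 and 2 at -57.5 and -56.3, and the untreated libraries between 35.1 and 54.2. The main results are given with and without it. For the MEP label, summed marker levels in the untreated libraries were 9767 to 10165 CPM over 19 erythroid genes and 111.9 to 174.1 CPM over 12 megakaryocyte genes, beside 2446 to 5621 CPM over 15 genes of granulocytes and monocytes, cells outside the MEP lineages.

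Across the 10 Polycomb genes with all 6 libraries, *Ezh1* had the largest fold difference, while without dox-treated replicate 3, and with array quality weights, that of *Cbx7* was larger. From the mean log2 values, *Ezh1* was 1.85-fold higher in dox-treated MEPs with no overlap between groups, whereas *Ezh2* was 0.958-fold, and *Eed*, their shared partner, was 0.785-fold. On the same scale *Cbx7* was 1.56-fold and *Cbx8* 1.499-fold higher with dox, *Cbx7* with overlapping groups. Each of the 10 was above 1 CPM in every library. By limma on the log2 CPM values, with Benjamini–Hochberg adjustment over 12088 genes, 0 of the 10 passed an adjusted p of 0.05 in either direction, where 7.77% of all genes tested passed. *Ezh1* came nearest (adjusted p = 0.051). At an unadjusted p under 0.05 there were 3, where 29.2% of all genes had one, of which *Ezh1* and *Cbx8* were higher (15.6% of all genes) and *Eed* lower (13.6%). At an adjusted p under 0.1 there were 2 (18.3% of all genes). With array quality weights 4 passed (42.3% of all genes), 3 higher (20.8%) and 1 lower (21.5%). With a mean-variance trend 1 was higher (7.52%) and 0 lower (6.18%), and 1 passed with voom precision weights (9.8% of all genes). There was also 1 with log2(CPM + 1) (10.3% of all genes), 1 with a stricter filter of 5 CPM in 3 libraries (11.5%) and 1 with quantile normalization (9.8%), in each case *Ezh1*. Without dox-treated replicate 3, *Ezh1*, *Cbx7* and *Cbx8* were higher and *Eed* lower past the threshold, 4 of 10 where 28.9% of all genes tested passed. The median log2 fold change (log2FC, dox-treated over untreated) of the 10 genes was 0.13, beside -0.03 for all genes tested.

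**Figure D1:**
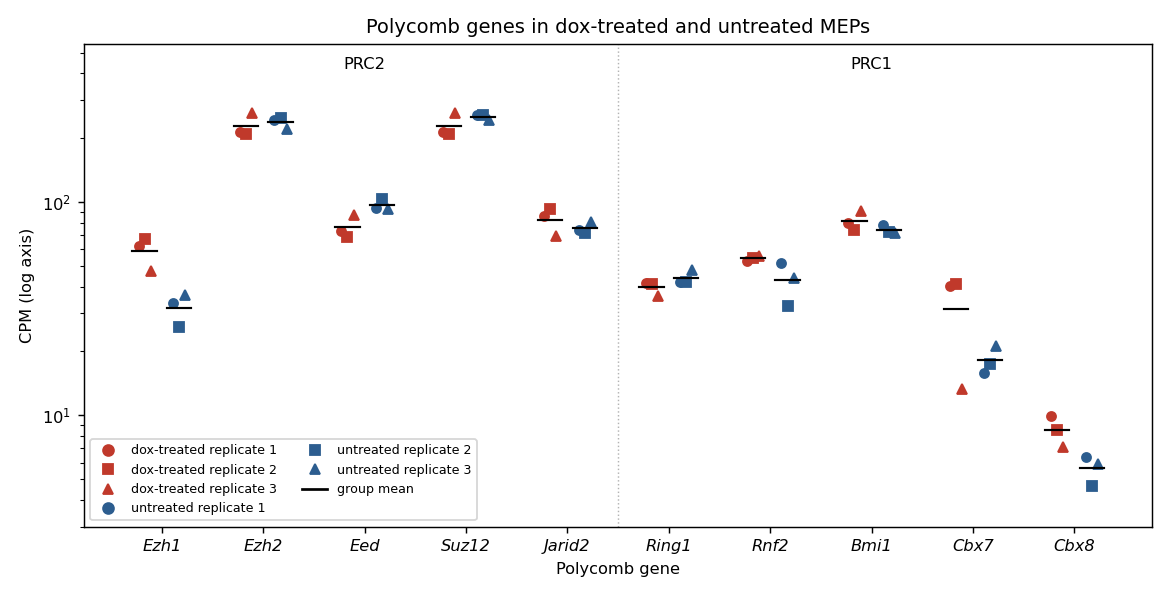
CPM of the 10 Polycomb genes on a log axis, with 1 point per library, dox-treated in red and untreated in blue, and a bar for each group mean (n = 3). Only *Ezh1*, *Rnf2* and *Cbx8* have every red point above every blue one, and dox-treated replicate 3 of *Cbx7*, at 13.2 CPM, lies below all 3 untreated libraries.

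The promoters of *Ezh1*, *Ezh2* and *Suz12* are shown because the first 2 genes encode alternative forms of the PRC2 enzyme and *Suz12* a partner that both need. The sequences are RefSeq windows on GRCm38.p6, from 250 bases before to 50 after the annotated start, read 5′ to 3′ on the gene's strand. The windows are chr11:101226414-101226713 (minus strand) for *Ezh1*, chr6:47594981-47595280 (minus strand) for *Ezh2* and chr11:79992856-79993155 (plus strand) for *Suz12*. A RefSeq window was found for all 10 genes. Capitals mark matches, on either strand, to CCAAT or to TTCCCGC, a form of the E2F motif.
Ezh1: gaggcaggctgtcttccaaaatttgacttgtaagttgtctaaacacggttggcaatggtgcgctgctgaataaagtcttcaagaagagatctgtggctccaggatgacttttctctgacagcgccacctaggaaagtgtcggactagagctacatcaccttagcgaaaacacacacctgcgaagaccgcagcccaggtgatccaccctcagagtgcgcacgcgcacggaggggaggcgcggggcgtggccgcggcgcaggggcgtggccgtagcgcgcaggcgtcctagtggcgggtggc
Ezh2: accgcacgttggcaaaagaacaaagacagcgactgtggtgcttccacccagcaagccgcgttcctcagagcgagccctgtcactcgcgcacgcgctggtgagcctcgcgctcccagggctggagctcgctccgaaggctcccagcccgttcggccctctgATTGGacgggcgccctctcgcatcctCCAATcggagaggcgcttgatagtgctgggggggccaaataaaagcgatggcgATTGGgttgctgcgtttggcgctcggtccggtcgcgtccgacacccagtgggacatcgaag
Suz12: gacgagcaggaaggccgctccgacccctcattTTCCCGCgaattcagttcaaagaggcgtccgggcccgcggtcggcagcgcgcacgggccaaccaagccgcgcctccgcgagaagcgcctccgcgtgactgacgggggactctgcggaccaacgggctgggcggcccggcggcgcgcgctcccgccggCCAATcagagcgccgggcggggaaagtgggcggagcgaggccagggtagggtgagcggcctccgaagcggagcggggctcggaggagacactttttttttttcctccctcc

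The *Ezh2* window held 3 CCAAT matches and the *Ezh1* window 0, while 37.4% of 32851 promoter windows of this length held at least 1. CCAAT was also found for *Eed*, *Suz12*, *Jarid2*, *Cbx7* and *Cbx8*, so for 6 of the 10 members, and not for *Ring1*, *Rnf2* or *Bmi1*. TTCCCGC was found only in the *Suz12* window among the members, and in 4.6% of all windows. None of the 10 genes' windows held the motif searched for GATA factors (AGATAA), which was present in 11.2% of all windows. The same was true of the ETS motif CCGGAAG, present in 8.86% of all windows, and of TAATGG, a form bound by NANOG, present in 7.73%. GC content was 59.3% in the *Ezh1* window, 64.3% in that of *Ezh2* and 71% in that of *Suz12*, beside a median of 52.7% over all windows. Both strands were searched for each motif, and these matches describe letters only.

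*Ezh1*, one of the alternative methyltransferases of PRC2, lies on chromosome 11 of NCBIM37 from 101052429 to 101087777 on the minus strand. Its level was 62.1, 67.4 and 47.5 CPM in dox-treated replicates 1, 2 and 3 and 33.5, 25.8 and 36.5 CPM in the untreated ones. The groups were apart, with all dox-treated values the higher, and dox-treated replicate 3 was the lowest of its group. The means were 59.0 ± 10.3 CPM (SD, n = 3) and 31.9 ± 5.52 CPM (SD, n = 3), a log2FC of 0.89 (standard error, SE, 0.20, 95% interval 0.40 to 1.37). Its two-sided exact permutation p was 0.1, the smallest that 3 libraries against 3 allow. Without dox-treated replicate 3 the log2FC was 1.03 (adjusted p = 0.021, limma), and with any other single library left out it was at least 0.74.

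*Ezh2*, the paralog of *Ezh1*, lies on chromosome 6 from 47480273 to 47545340. It had 213.8, 208.7 and 260.3 CPM with dox and 242.8, 246.5 and 220.9 CPM without. Dox-treated replicates 1 and 2 were the lowest of the 6 libraries and dox-treated replicate 3 was the highest. The log2FC was -0.06 (95% interval -0.37 to 0.25, adjusted p = 0.77, limma), and the sign turned under quantile normalization (0.067) and with CPM of the recovered totals (0.048). Without dox-treated replicate 3 it was -0.16 (adjusted p = 0.23, limma). A long non-coding RNA gene overlaps *Ezh2* on the opposite strand, and as the use of strand in counting is not stated, reads where their exons overlap cannot be assigned.

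For the core partners *Eed* and *Suz12*, as for *Ezh2*, dox-treated replicates 1 and 2 were the lowest libraries. *Eed*, which encodes the subunit that reads the PRC2 mark, lies on chromosome 7 from 97103166 to 97129493. Its values were 73.3, 68.1 and 86.4 CPM with dox and 93.7, 102.9 and 92.7 CPM without, with no overlap between groups. The log2FC was -0.35 (SE 0.13, adjusted p = 0.14, limma), and -0.45 without dox-treated replicate 3 (adjusted p = 0.031, limma). *Suz12*, needed for the stability and activity of PRC2, lies on chromosome 11 from 79806608 to 79847625, with a non-coding gene on the opposite strand. It had 212.8, 208.8 and 260.3 CPM in the dox-treated and 254.6, 255.8 and 241.5 CPM in the untreated replicates, so that dox-treated replicate 3 was again the highest library and the other dox-treated ones the lowest. Its log2FC was -0.15 (95% interval -0.45 to 0.15, adjusted p = 0.46, limma), and -0.25 without dox-treated replicate 3 (adjusted p = 0.076).

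*Jarid2*, on chromosome 13 from 44824843 to 45017012, ran the other way. It had 85.6, 93.1 and 69.4 CPM with dox and 73.7, 71.8 and 80.1 CPM without. Here dox-treated replicates 1 and 2 were the highest and dox-treated replicate 3 the lowest of all libraries. The log2FC of 0.13 had a 95% interval from -0.22 to 0.47 (adjusted p = 0.57, limma), and without dox-treated replicate 3 it was 0.25 (adjusted p = 0.11).

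**Figure D2:**
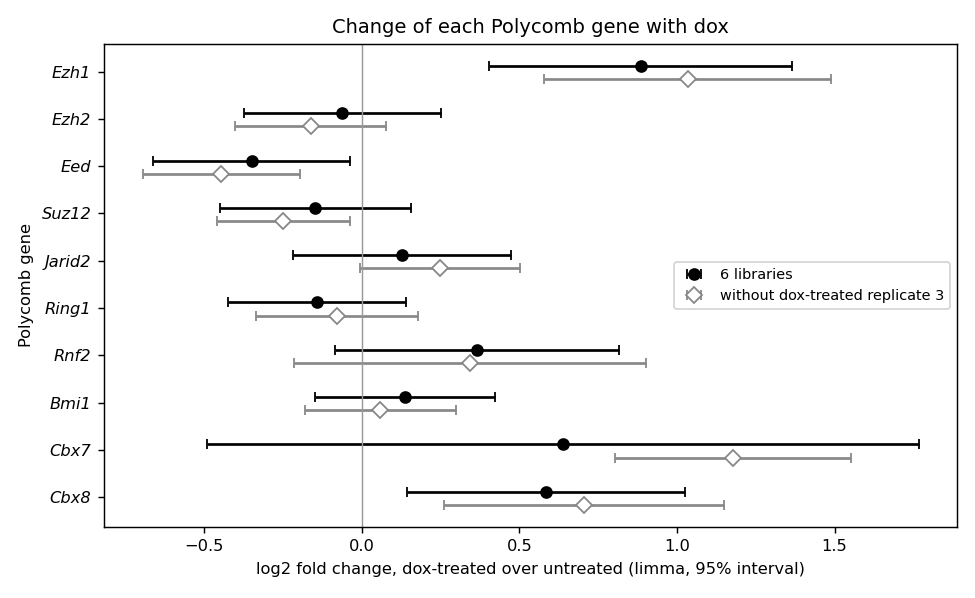
Log2FC of each Polycomb gene, dox-treated over untreated, with its 95% interval from limma, for all 6 libraries (filled circles) and without dox-treated replicate 3 (open diamonds). The point for *Ezh1* is at 0.89 with all libraries and at 1.03 without that replicate, and *Cbx7* moves from 0.64 to 1.18.

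Of the ubiquitin ligases of PRC1, *Ring1* had the lower and *Rnf2* the higher mean with dox, and neither passed the threshold. *Ring1*, on chromosome 17 from 34157737 to 34161625, had 41.8, 41.3 and 36.3 CPM with dox and 41.9, 42.2 and 47.8 CPM without. The groups did not overlap, but the highest dox-treated and the lowest untreated library were close (41.8 and 41.9 CPM), and the log2FC was -0.14 (95% interval -0.42 to 0.14, adjusted p = 0.44, limma). *Rnf2*, on chromosome 1 from 153316536 to 153347953, had 52.6, 54.3 and 56.0 CPM in the dox-treated replicates, all above the untreated ones at 51.9, 32.7 and 44.1 CPM. The spread among untreated libraries was wide (42.9 ± 9.70 CPM, SD, n = 3), and the log2FC was 0.37 (95% interval -0.09 to 0.82, adjusted p = 0.24, limma). *Bmi1*, the PCGF subunit, on chromosome 2 from 18598645 to 18608256, had 79.7, 74.1 and 90.4 CPM with dox and 78.1, 72.1 and 71.3 CPM without. Its groups overlapped and its log2FC was 0.14 (95% interval -0.15 to 0.42, adjusted p = 0.47, limma).

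The CBX genes, whose products bind the H3 mark through a chromodomain, had the higher means with dox on the PRC1 side. *Cbx7*, on chromosome 15 from 79746237 to 79801549, split the dox-treated group. It had 40.4 and 41.0 CPM in dox-treated replicates 1 and 2 but 13.2 CPM in replicate 3, and 15.9, 17.4 and 21.0 CPM in the untreated replicates. Replicates 1 and 2 were thus the highest and replicate 3 the lowest of the 6 libraries. With all of them the log2FC was 0.64 (SE 0.46, adjusted p = 0.39, limma), and without replicate 3 it was 1.18 (adjusted p = 0.012, limma). *Cbx8*, on chromosome 11 from 118897619 to 118902283, was the least expressed of the 10, with 134, 114 and 111 reads in the dox-treated and 82, 63 and 65 reads in the untreated replicates. This is 9.87, 8.49 and 7.12 CPM against 6.38, 4.66 and 5.91 CPM, with no overlap. The log2FC was 0.58 (SE 0.18, adjusted p = 0.099, limma), and 0.70 without dox-treated replicate 3 (adjusted p = 0.041, limma).

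Of the 10 genes, 5 had groups without overlap, as did 35.9% of all genes tested. With dox 3 were higher (*Ezh1*, *Rnf2* and *Cbx8*, against 17.7% of all genes) and 2 lower (*Eed* and *Ring1*, against 18.2%). Dox-treated replicate 3 was nearer to the untreated mean than to the mean of the other dox-treated replicates for 6 of the 10, where this held for 56.9% of all genes. It lay outside the range of the untreated libraries for 10 of 10, against 69.6% of all genes. In this library *Ezh2*, *Suz12*, *Rnf2* and *Bmi1* were at their highest, and *Jarid2*, *Ring1* and *Cbx7* at their lowest.

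Levels of different genes were compared per length, as CPM per 1000 bases of the longest annotated transcript (RPKM). In untreated MEPs *Ezh2* had 89.3 ± 5.22 RPKM (SD, n = 3), *Suz12* 57.3 ± 1.81 and *Eed* 46.7 ± 2.71 RPKM. Then came *Bmi1* (20.6 ± 1.04 RPKM), *Ring1* (17.2 ± 1.29), *Rnf2* (14.2 ± 3.20), *Jarid2* (9.01 ± 0.522), *Ezh1* (7.59 ± 1.31), *Cbx7* (5.34 ± 0.779) and *Cbx8* (1.58 ± 0.249 RPKM). The neighbours *Ring1* and *Rnf2*, and *Jarid2* and *Ezh1*, had overlapping ranges of mean ± SD. When the summed exons of all transcripts were used as the length, *Suz12* was the highest at 50.7 RPKM, followed by *Eed* at 43.5 and *Ezh2* at 38.2 RPKM, *Rnf2* (14.2 RPKM) came before *Ring1* (13.6 RPKM) and *Cbx7* (4.78 RPKM) before *Ezh1* (4.29 RPKM), so the order in these places depends on the length used. With dox *Ezh1* was at 14.0 ± 2.44 RPKM and *Ezh2* at 85.8 ± 10.7 RPKM (SD, n = 3).

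The balance within pairs of paralogs was read in each library as the log2 ratio of their levels per length. *Ezh1* over *Ezh2* was at -2.45, -2.30 and -3.12 in the dox-treated and -3.52, -3.92 and -3.26 in the untreated replicates. *Ezh2* was the more abundant in every library, and the ratio was higher in each dox-treated library than in any untreated one. The mean difference of the ratio was 0.95 on the log2 scale, or 1.93-fold (two-sided exact permutation test, p = 0.1, the smallest this design allows, and 0.15 adjusted over the 3 pairs), and 1.196 without dox-treated replicate 3. *Ring1* over *Rnf2* was lower with dox by 0.51 on the log2 scale (from 0.30 ± 0.34 to -0.20 ± 0.15, SD, n = 3, exact permutation p = 0.1, adjusted 0.15), and the sign of the ratio itself depends on the length used. *Cbx7* over *Cbx8* differed by 0.05 (exact permutation p = 0.9), with dox-treated replicate 3 at 0.97 and replicates 1 and 2 at 2.11 and 2.35. Without that replicate the difference was 0.47.

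**Figure D3:**
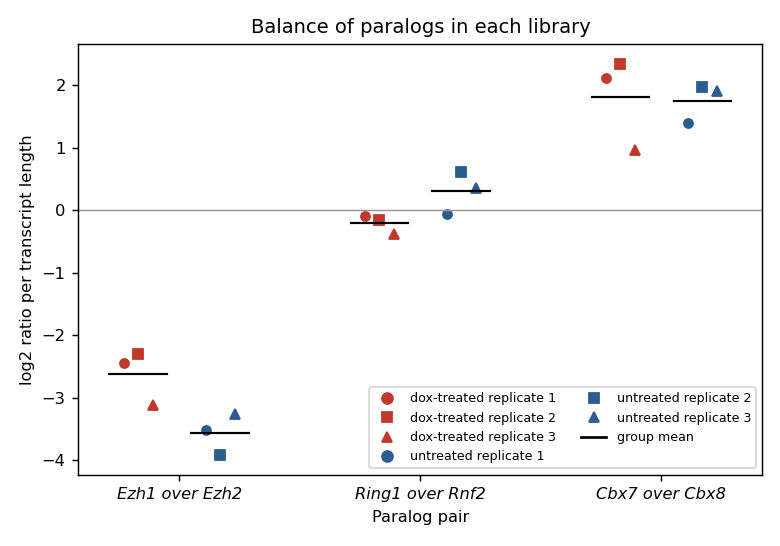
Log2 ratio per transcript length of *Ezh1* over *Ezh2*, *Ring1* over *Rnf2* and *Cbx7* over *Cbx8*, with 1 point per library and a bar for each group mean (n = 3). For the first pair the dox-treated libraries, from -3.12 to -2.30, all lie above the untreated ones, from -3.92 to -3.26.

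Marker lists of cell types and of proliferation moved between the same libraries as several Polycomb genes. On the first principal component, which held 60.4% of the variance over all genes tested, dox-treated replicates 1 and 2 also lay furthest from the untreated libraries. How many of all genes had these replicates as the extreme libraries was not counted, so a shared order of libraries is a description only. Their counts past the threshold stand beside 4.59% of all genes higher and 3.18% lower. The summed level of 25 proliferation genes, all of them listed, was 5839, 5689 and 8620 CPM in the dox-treated and 8670, 8993 and 7975 CPM in the untreated replicates. Dox-treated replicates 1 and 2 were thus the lowest here, as they were for *Ezh2*, *Eed* and *Suz12*, though by limma 0 of the 25 passed the adjusted threshold and 8 had an unadjusted p under 0.05, all lower, where 13.6% of all genes were. Without dox-treated replicate 3, 20 were lower past the threshold, where 14% of all genes were. The megakaryocyte list, with 4 genes higher and 1 lower among 12 tested, summed to 604.2, 585.9 and 208.2 CPM with dox and 174.1, 111.9 and 168.0 CPM without, with dox-treated replicates 1 and 2 the highest libraries, as for *Ezh1*, *Cbx7* and *Cbx8*. In the granulocyte-monocyte list 9 of 15 genes were lower, and its sum ran from 561.4 to 857.5 CPM with dox and from 2446 to 5621 CPM without. Erythroid markers (3 of 19 lower) summed to 7173, 6942 and 11635 CPM with dox and 10165, 9932 and 9767 CPM without, so that dox-treated replicates 1 and 2 were the lowest and replicate 3 the highest, as for *Ezh2* and *Suz12*. Of the mast cell and basophil markers 3 of 6 tested were higher, with the defining *Fcer1a*, *Cma1* and *Tpsb2* not listed. Their sum ran from 560.9 to 759.6 CPM with dox and from 401.9 to 632.0 CPM without. The median log2FC of these markers was 1.48, with 4 higher and 2 lower in mean. *Kit* had the highest level both in this list and in the stem and early progenitor list, so their sums are not separate readings. Stem and early progenitor markers (0 of 10 by limma, 5 higher at an unadjusted p under 0.05, where 15.6% of all genes were) ran from 634.1 to 779.2 with dox and from 471.2 to 685.7 CPM without, and lymphoid ones (0 of 7, also unadjusted) from 18.8 to 75.6 and from 19.5 to 22.8 CPM. With dox-treated replicate 3 left out, the counts past the threshold were 6 of 10 higher for the stem and early progenitor list, 10 of 19 lower for the erythroid, 6 higher and 2 lower of 12 for the megakaryocyte, 4 of 6 higher for the mast cell and basophil, 10 of 15 lower for the granulocyte-monocyte and 0 of 7 for the lymphoid list, where 14.9% of all genes were higher and 14% lower. In bulk RNA a change in the share of cells of a type and a change of RNA per cell cannot be told apart, and the part of these lists in the Polycomb values was not tested.

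By Pearson correlation of log2 values over the 6 libraries, searched in the 9987 genes that averaged 5 CPM or more, those most like *Ezh1* were *Pdp1* (r = 0.999), *Mmrn1* (r = 0.998) and *Tek* (r = 0.998). *Mmrn1*, which encodes a platelet and endothelial protein, was at 36.0 ± 15.8 CPM with dox and 5.48 ± 2.53 CPM without, and *Tek*, which encodes the angiopoietin receptor of endothelial and stem cells, at 31.0 ± 19.7 and 2.84 ± 1.53 CPM (SD, n = 3). Among those most like *Ezh2* were *Tmem55a* (r = 0.996) and *Prpf38a* (r = 0.995). With so few libraries, which all genes share, these values are descriptions.

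The other genes of the Polycomb system were followed in a list of 34, of which 33 were listed and tested. In it 1 gene was higher (4.59% of all genes tested were) and 2 were lower (3.18% of all genes tested were), all of them PRC1 subunits, and 30 did not pass. *Phc1*, a Polyhomeotic subunit of canonical PRC1, rose from 28.2, 25.7 and 30.5 CPM in the untreated to 41.9, 46.8 and 38.8 CPM in the dox-treated replicates (log2FC 0.59, SE 0.12, adjusted p = 0.045, limma). *Kdm2b*, whose product brings a variant PRC1 to unmethylated CpG islands, fell from 146.1, 147.4 and 142.8 CPM to 103.5, 101.1 and 110.1 CPM (log2FC -0.47, adjusted p = 0.041, limma). *E2f6*, a DNA-binding subunit of another variant PRC1, fell from 86.8, 86.1 and 74.6 CPM to 41.7, 39.7 and 57.2 CPM (log2FC -0.85, adjusted p = 0.041, limma). In each of the 3 genes the groups were apart and dox-treated replicate 3 lay nearer to the other dox-treated replicates. *Orai1* and a non-coding gene overlap *Kdm2b* on the opposite strand, so its reads are uncertain where exons overlap. Without dox-treated replicate 3, 4 of the 33 were higher and 5 lower, where 14.9% and 14% of all genes were, and with any other single library left out none was.

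Among the PRC2 accessory and shared subunits 0 of 7 passed by limma, 0 also at an unadjusted p under 0.05, and 1 (*Phf1*) without dox-treated replicate 3. The smallest p-values were those of *Phf19* (log2FC -0.55, adjusted p = 0.19, limma), *Phf1* (0.82, adjusted p = 0.27) and *Aebp2* (-0.12, adjusted p = 0.43). *Phf1*, a Polycomb-like subunit that binds PRC2 to chromatin, had 32.5, 29.0 and 10.3 CPM with dox and 10.7, 12.6 and 13.0 CPM without, again with dox-treated replicate 3 below every untreated library as for *Cbx7*. Among the 21 other PRC1 subunits, 2 were higher and 8 lower at an unadjusted p under 0.05, where 15.6% and 13.6% of all genes were. Of these *L3mbtl2* (log2FC -0.51, adjusted p = 0.062, limma), *Cbx6* (-0.41, adjusted p = 0.067) and *Pcgf2*, the close paralog of *Bmi1*, were picked out after their values were seen. *Pcgf2* had 14.1, 14.3 and 6.03 CPM with dox and 3.97, 4.36 and 5.46 CPM without (log2FC 1.22, adjusted p = 0.093, limma). Without dox-treated replicate 3 all of these passed by limma, *Pcgf2* at 1.63 (adjusted p = 0.0075), *L3mbtl2* at -0.51 (adjusted p = 0.046) and *Cbx6* at -0.35 (adjusted p = 0.036). Of the enzymes that oppose Polycomb, 0 of 5 passed by limma, 0 also at an unadjusted p and 0 without dox-treated replicate 3. *Kdm6a*, an H3K27 demethylase, had a log2FC of 0.14 (adjusted p = 0.37, limma), *Bap1*, an H2A deubiquitinase, -0.14 (adjusted p = 0.40) and its partner gene *Asxl2* -0.13 (adjusted p = 0.54).

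**Figure D4:**
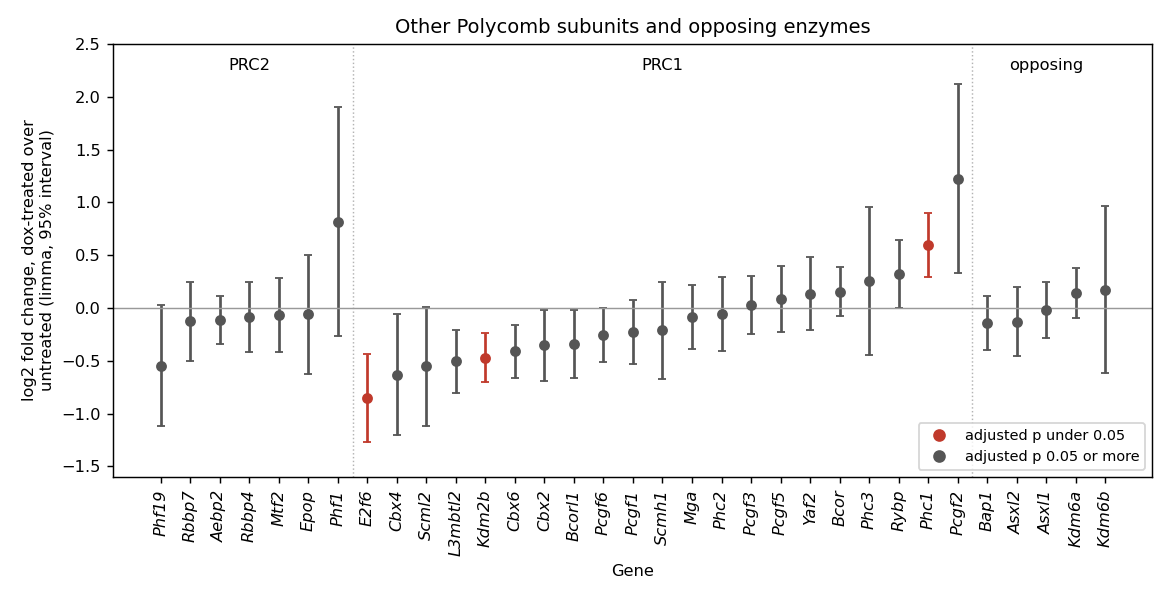
Log2FC, dox-treated over untreated, of 33 other Polycomb subunits and opposing enzymes with 95% intervals from limma (n = 3 per group), red where the adjusted p was under 0.05. The 3 red points are *E2f6* at -0.85, *Kdm2b* at -0.47 and *Phc1* at 0.59.

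Genes known from other tissues and from blood stem cells as Polycomb targets were listed in the table for 10 of 30, and the other 20 were not analysed here. Nearly all genes of the table reached 1 CPM in at least 3 libraries, which favours genes high in some libraries, and *Hmga2* and *Cdkn1c* were under 1 CPM in at least 1 untreated library, so counts over these 10 genes can lean towards genes high with dox and are not a measure of the targets as a whole. The gene that passed was *Hmga2*, which encodes a chromatin protein of fetal stem cells, with 324, 139 and 84 reads in the dox-treated and 8, 7 and 17 reads in the untreated replicates. This is 13.2 ± 9.56 CPM against 0.895 ± 0.566 CPM (SD, n = 3), a log2FC of 3.72 (SE 0.64, adjusted p = 0.030, limma). Non-coding genes overlap *Hmga2* on the opposite strand. With voom precision weights, and with any single library other than dox-treated replicate 3 left out, 0 of the 10 target genes were higher past the threshold.

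From this list *Hoxa9*, *Hoxa7* and *Meis1*, which encodes a partner of HOX proteins, were picked out after their values were seen. *Hoxa9* and *Meis1* are also in the stem and early progenitor list, so counts over both lists share these genes. *Hoxa9* had 37.8, 40.0 and 18.6 CPM with dox and 20.4, 17.1 and 19.6 CPM without (log2FC 0.68, adjusted p = 0.21, limma). *Hoxa7* had 15.8, 19.95 and 5.33 CPM against 4.98, 3.62 and 5.91 CPM, and *Meis1* 52.7, 63.6 and 17.6 CPM against 19.1, 9.61 and 19.4 CPM. In all of these dox-treated replicates 1 and 2 were above every untreated library and dox-treated replicate 3 was within the untreated range. That was not so for all of the list. *Hoxa10* (log2FC 1.13, adjusted p = 0.079, limma) and *Hoxa3* (1.28, adjusted p = 0.14) were higher with groups apart. *Igf2bp2* was lower with groups apart (-0.46, adjusted p = 0.0998, limma). Without replicate 3, 9 of the 10 target genes were higher past an adjusted p of 0.05 (limma), where 14.9% of all genes tested were, and 0 were lower. With it the count was 1 of 10, so that 1 library decides this count. The list held 6 of the 8 *Hox* genes in the table, and the other 2, looked up after these results were seen, differed in sign. *Hoxa4* fell, with 0.884, 1.19 and 1.16 CPM with dox and 1.87, 2.22 and 1.64 CPM without (log2FC -0.81, adjusted p = 0.047, limma, and -0.86, adjusted p = 0.034, without replicate 3). Such low levels limit its precision. *Hoxa6* had a log2FC of 0.60 (adjusted p = 0.61, limma), and 1.40 without replicate 3 (adjusted p = 0.063). *Hoxa4*, *Hoxa5* and *Hoxa6* overlap *Hoxa3* on the same strand, so reads are uncertain where their exons overlap.

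**Figure D5:**
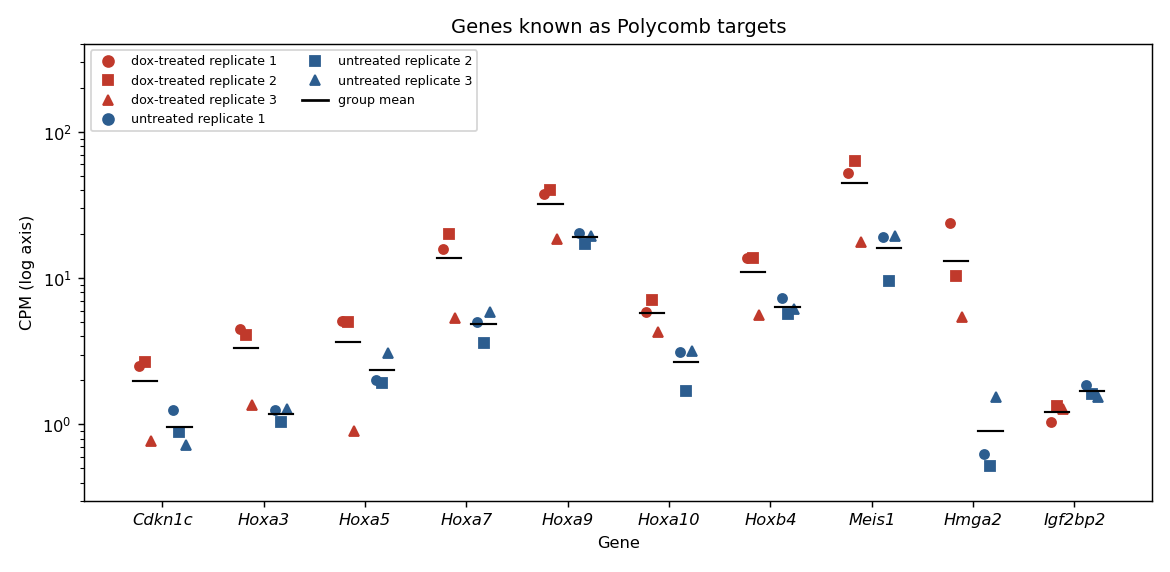
CPM on a log axis of the 10 listed genes known as Polycomb targets, with 1 point per library and a bar for each group mean (n = 3). For *Hoxa7*, *Hoxa9* and *Meis1* the triangle of dox-treated replicate 3, at 5.33, 18.6 and 17.6 CPM, lies among the untreated points, and for *Hmga2* all dox-treated points lie above them.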

How the data were processed

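RNA from sorted MEPs of dox-treated and untreated adult *Nanog* transgenic mice, 3 libraries each, had been read on an Illumina GAIIx. Adapter trimming was done by the authors with Cutadapt, quantification with RSEM against Ensembl transcripts of NCBIM37, and normalization with limma. The deposited table holds log2 CPM for 12101 genes, computed after adding 0.5 to each read count, with replicates kept separate. Normalization factors, any low-value filter and the use of strand are not given in the sources used here. Read counts were worked back by taking the smallest value in a library as 0 reads (100% of values then came out whole, to within 6.64e-09 reads), and CPM printed here are these counts over the normalized library size.

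The 12088 genes that reached 1 CPM in 3 or more libraries were tested by limma 3.58.1 under R 4.3.3 (linear model and moderated statistics, no block, no weights) with Benjamini–Hochberg adjustment. The added 0.5 makes fold changes of low genes too small. The code was tested on simulated data. Permutation tests were exact and two-sided. Symbols were found for 12067 gene IDs, loci and transcript lengths came from GENCODE on NCBIM37, and promoters from RefSeq on GRCm38.p6. Tables and figures used Python 3.11.15, numpy 2.4.6, pandas 2.3.3, scipy 1.17.1 and matplotlib 3.10.9.

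Named were all 10 members, genes of the wider lists past the threshold or otherwise the 3 with the smallest p, and the 3 genes most like *Ezh1*, the member with the smallest p, and *Ezh2*. Of these, 1 gene is not reported here. The members and lists were chosen with earlier results of these data known. Alternatives changed the block, pseudocount, filter, variance model, weights, scaling and threshold, and left out each library in turn.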

Additional observations from a re-analysis of the deposited data

How the results depend on the processing

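Of the 10 members, *Bmi1*, *Jarid2*, *Ring1*, *Rnf2* and *Suz12* kept their direction and their side of the threshold under all 16 alternatives. *Ezh1* kept its direction under all 16 and passed the threshold under 8 of them, *Cbx8* under 3, and *Cbx7* and *Eed* under 2 each. *Ezh2* turned sign with quantile normalization (0.067) and with CPM of the recovered totals (0.048). That last scaling moved the median of all genes by 0.11, and relative to this shift *Ezh2* was at -0.06. It moved the members' median from 0.13 to 0.24, and relative to the same shift each member was at its main value.

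The members past the threshold, 0 higher and 0 lower, became 1 higher with log2(CPM + 1), 1 with a filter of at least 5 CPM in 3 libraries, 1 with a mean-variance trend, 1 with voom precision weights and 1 with quantile normalization (*Ezh1* each time), 2 at an adjusted p under 0.1, and 3 higher and 1 lower with array quality weights. In the same order, 10.3%, 11.5%, 13.7%, 9.8%, 9.8%, 18.3% and 42.3% of all genes passed in either direction. Leaving out each library gave 0 to 3 higher and 0 to 1 lower, with none past the threshold unless dox-treated replicate 3 was the one left out. Over all genes 1801 were then higher and 1687 lower, against 92 to 143 higher and 36 to 126 lower without any other library. Of the other Polycomb genes, 1 higher and 2 lower, counts became 5 and 6 with array quality weights and 2 and 4 at an adjusted p under 0.1. The 2 lower became 4 with the stricter filter, 4 with the trend, 4 with voom weights and 1 with recovered totals. Leaving out each library gave 0 to 4 higher and 0 to 5 lower. Of the target genes, 1 higher and 0 lower, counts became 8 and 1 with array quality weights, 2 and 1 at an adjusted p under 0.1, and 0 higher with voom weights, and ran from 0 to 9 higher when each library was left out. The *Cbx7* over *Cbx8* difference, 0.05, turned sign without dox-treated replicate 1, dox-treated replicate 2 or untreated replicate 1, and over all libraries left out ran from -0.22 to 0.47. The cause of these changes in counts and in sign was not tested.

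In a fit that blocked on the replicate number, the other Polycomb genes had 0 higher and 0 lower and the target genes 0 higher, the members stayed at 0, and over all genes 82 were past the threshold in place of 939. Deviations of same-numbered libraries correlated at -0.30 to 0.02, and 1 of 6 libraries correlated best with the library of the other group that shared its number, so the number was not taken as a pairing. Counts of 63 to 134 reads per library limit the precision for *Cbx8*, and 7 to 17 untreated reads that for *Hmga2*.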
